A study of Homo sapiens with 30 samples.

Results

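The MYC and MAX network is a family of basic helix-loop-helix leucine zipper proteins that compete for 1 shared partner. MYC, MYCL and MYCN form dimers with MAX that bind the E-box, a short palindromic DNA element, and activate genes for growth and ribosome production. MXD1, MXI1 (also called MXD2), MXD3, MXD4 and MNT also form dimers with MAX, bind the same element and recruit the SIN3 and histone deacetylase corepressors, so that the balance of activating and repressing partners sets the output of the network. MYC is a driver of proliferation in lung cancer, and p53 opposes proliferation, largely through CDKN1A, the cyclin-dependent kinase inhibitor p21. The 9 genes were chosen by name, as the members of this network, from the 39359 genes of the count table, and their levels were followed across 30 RNA-seq libraries.

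The libraries came from H1299, a human lung carcinoma line that makes no p53 of its own. Cells were transiently transfected with pGFP, which expresses GFP alone, or with a vector that also expresses p53 from an inducible TRE-tight promoter, and GFP-positive cells were sorted at 6 h or 24 h. The p53 vectors carried wild type p53, RW mutant p53, whose binding to DNA is reduced, or p53 O6-meG, a vector with an O6-methylguanine lesion on the transcribed strand at the position of that mutation. The p53 TM (transcriptional mutagenesis) cells received the O6-meG vector together with 10 µM O6-bzG, which inactivates AGT, the enzyme that removes the lesion, so that RNA polymerase can misread it. No other group was labelled as treated with O6-bzG, so its own effect cannot be told apart from that of the misread transcript. All groups share the cell line, the sort and the transfection, p53 was overexpressed, and the labels do not say whether replicates came from separate cultures, so p-values measure the spread between these samples.

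Titles of 2 libraries, both labelled replicate 2 at 6 h, name p53 O6-meG in one part and p53 TM in the other. They entered no group, which left 2 libraries each for p53 O6-meG and p53 TM at 6 h and 3 for each of the other 8 groups. CDKN1A stood at 50.2 CPM (the depth-scaled unit of read counts, after TMM normalization) in the library whose genotype label says O6-meG, where the p53 TM libraries at 6 h held 57.9 and 65.9. It stood at 249.7 CPM in the library whose genotype label says TM, where the p53 O6-meG libraries held 261 and 269. Adding both libraries by either label changed no count of network genes called at 6 h.

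Between 32302699 and 71950532 reads were counted on genes per library, with a median of 44424643. Mean CDKN1A at 6 h was 40.0 CPM in pGFP, 42.2 with RW mutant, 255 with wild type, 265 with p53 O6-meG and 61.9 with p53 TM. At 24 h the means were 48.0, 47.1, 615, 609 and 360 CPM in the same order. Of the 7 line markers, KRT8, KRT18, VIM and CDH2 were detected throughout (lowest library 43.6 CPM, for CDH2), while KRT19, EPCAM and CDH1 stayed at or below 0.381 CPM. Of the 7 markers of other cell types found in the table, 6 stayed below 1 CPM: PTPRC reached 0.05, MS4A1 0.0266, CD68 0.209, ALB 0.850, VWF 0.990 and PECAM1 0.999 CPM. The globin gene HBB alone was abundant, at 162 to 1196 CPM. The summed level of these 7 genes at 24 h ran from 705 to 1198 CPM in pGFP, 398 to 1000 with wild type, 354 to 855 with RW mutant, 259 to 724 with p53 O6-meG and 289 to 711 with p53 TM. At 6 h it ran from 544 to 598, 422 to 497, 341 to 436, 162 to 292 and 314 to 347 CPM in the same order. Its part in the differences against pGFP was not tested. With wild type p53 at 24 h, VWF (log2 1.69, adjusted p = 0.000416), CDH2 (log2 0.27, adjusted p = 0.00765) and VIM (log2 0.33, adjusted p = 0.0344) were higher than in pGFP.

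RefSeq promoters (GRCh38.p14) were at hand for 8 of the 9 members, all but MYC, as 11 windows of 250 bases before a start. The E-box CACGTG, which reads the same on both strands and which these proteins bind, was found in 2 of the 11, those of MXD4 and MNT, against 6.34% of 35116 promoters of the same length. These stretches of 60 bases, 5′ to 3′ on the minus strand with the E-box in capitals, are shown because they hold the only copies of the network's own binding element among the member promoters. The E-box begins 238 bases before the start of MXD4 and 193 bases before that of MNT.
MXD4, chr4:2262300-2262359: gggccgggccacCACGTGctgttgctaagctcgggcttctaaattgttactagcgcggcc
MNT, chr17:2401221-2401280: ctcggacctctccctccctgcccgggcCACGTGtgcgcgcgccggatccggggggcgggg
MXI1, whose level differed most between wild type p53 and pGFP at 24 h, has 3 RefSeq starts. The window before its first start is shown on the plus strand. The capitals mark a GC box (GGGCGG, searched on both strands), the only motif of those searched that it holds.
MXI1, chr10:110207355-110207604: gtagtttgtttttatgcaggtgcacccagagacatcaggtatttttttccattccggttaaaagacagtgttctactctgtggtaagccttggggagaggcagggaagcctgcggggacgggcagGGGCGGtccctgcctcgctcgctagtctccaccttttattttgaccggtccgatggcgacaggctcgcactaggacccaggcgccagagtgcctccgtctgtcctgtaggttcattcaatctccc
GC boxes were found in 10 of the 11 member windows and in 42.6% of all promoters. The p53 half-site consensus, searched on both strands with no mismatch, was found in 0 of the 11 and in 5.57% of all promoters. Such a match is a description of letters, and its absence concerns only these windows.

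Positions are given on GRCh38 with the GENCODE v44 annotation. The activating members are MYC (ENSG00000136997.17, 8:127735434-127742951, plus strand), MYCL (ENSG00000116990.10, 1:39895428-39902256, minus strand) and MYCN (ENSG00000134323.11, 2:15940550-15947007, plus strand). The shared partner MAX (ENSG00000125952.18) lies at 14:65006174-65102695 on the minus strand. The repressing members are MXD1 (ENSG00000059728.10, 2:69897688-69942945, plus strand), MXI1 (ENSG00000119950.20, 10:110207605-110287365, plus strand) and MXD3 (ENSG00000213347.10, 5:177301461-177312757, minus strand). MXD4 (ENSG00000123933.16, 4:2247432-2262109, minus strand) and MNT (ENSG00000070444.14, 17:2384073-2401104, minus strand) complete them. Only MXD1 and MXD4 overlap no gene on the other strand. MYC overlaps CASC11, MYCL overlaps MYCL-AS1, MYCN overlaps MYCNOS, MXD3 overlaps PRELID1, MAX overlaps FNTB and its readthrough gene with CHURC1, and MXI1 and MNT overlap unnamed transcripts. The strand setting of the authors' counting is not stated, so counts of these 7 genes may include reads of their overlapping partners.

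Levels of the genes were first compared with each other in pGFP cells, as CPM per kilobase of merged exons. This scale allows only a rough comparison between genes. Lengths merge the exons of all transcripts in GENCODE v44, while reads were counted on GENCODE v27 genes. At 6 h MAX (6.72 ± 0.246, SD, n = 3) and MYC (6.44 ± 0.722) led and differed by less than their spread. MXD1 (4.50 ± 0.557) and MXD4 (4.16 ± 0.231) followed, also within their spread, then MXI1 (3.19 ± 0.213), MXD3 (1.92 ± 0.205), MNT (0.870 ± 0.0843) and MYCL (0.0868 ± 0.0117). At 24 h MXD4 was first at 8.56 ± 0.444, and MYC at 7.54 ± 3.31, MAX at 7.07 ± 0.587 and MXD1 at 6.76 ± 1.03 stood next, each within the spread of its neighbour. MXI1 (2.57 ± 0.0351), MXD3 (2.26 ± 0.101), MNT (1.08 ± 0.145) and MYCL (0.215 ± 0.0501) kept the lower places. MYCN had counts in 3 of the 30 libraries, at most 2 reads in any and 4 in all, and was not tested. The other 8 members passed the filter on low counts, and MYCL was the scarcest of them, with 11 to 76 reads per library.

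**Figure D1:**
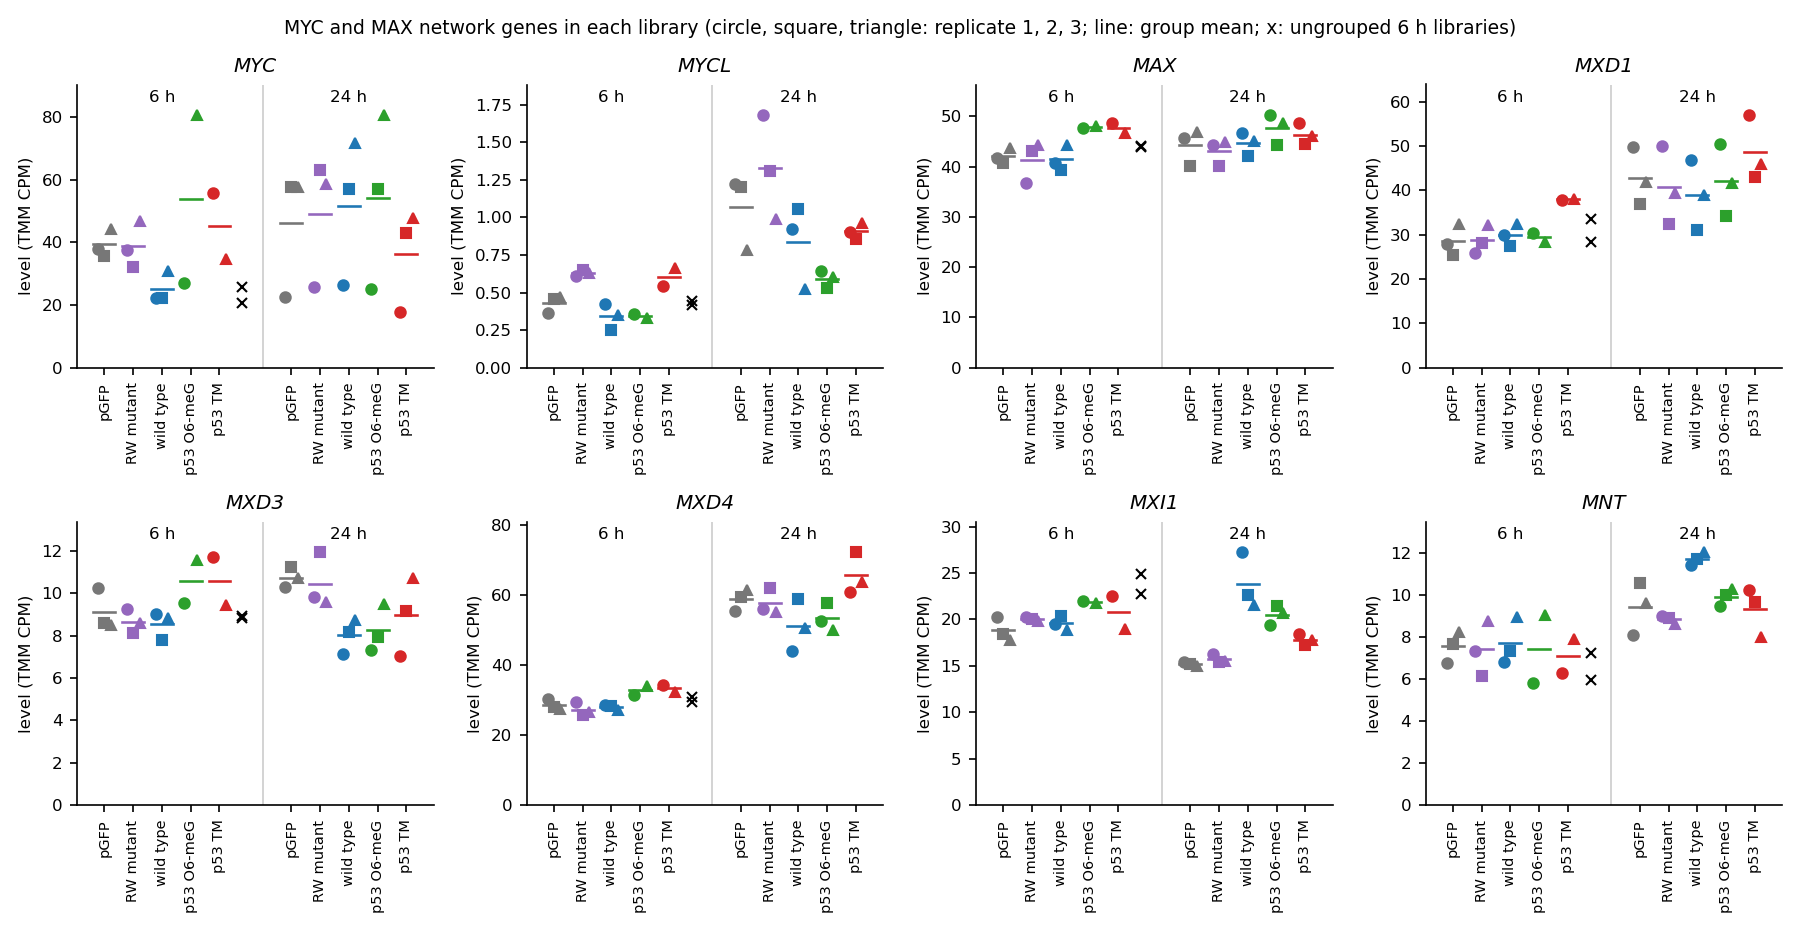
Level of each of the 8 tested genes (vertical axis, TMM-normalized CPM, each panel with its own scale from 0) in every library, by vector and time on the horizontal axis. Symbols mark replicate numbers, lines mark group means and crosses mark the 2 libraries placed in no group. MXD4 is higher in every 24 h library than in every 6 h library, MXI1 at 24 h is highest with wild type p53, and MYC at 24 h varies more within groups than between them.

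Between 6 h and 24 h after transfection several members moved in cells with pGFP or RW mutant p53, which sets the background for the p53 vectors. In pGFP, 4 of the 8 genes differed between 24 h and 6 h, against 41.2% of the 21335 genes tested (edgeR quasi-likelihood test, adjusted p under 0.05). The repressors MXD4 and MXD1 and the activator MYCL rose, and the repressor MXI1 fell. With RW mutant p53 the count was also 4, against 40.1% of all genes. Both comparisons rest on different libraries, and no fit with the replicate block is possible across times.

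MXD4 held 30.4, 27.9 and 27.4 CPM in pGFP at 6 h and 55.5, 59.4 and 61.5 CPM at 24 h. Over all groups it ranged from 25.7 to 34.2 CPM at 6 h and from 43.8 to 72.2 CPM at 24 h, so the times did not overlap. The log2 difference was 1.04 (SE 0.090, adjusted p = 5.61e-09) in pGFP and 1.09 (SE 0.091, adjusted p = 3.30e-09) with RW mutant p53. MYCL, the MYC paralogue first described in small-cell lung cancer, held 0.365, 0.459 and 0.471 CPM in pGFP at 6 h. At 24 h it held 1.22, 1.2 and 0.780 CPM, above all 3 earlier libraries. Its log2 rise was 1.30 (SE 0.25, adjusted p = 0.000231) in pGFP and 1.07 (SE 0.24, adjusted p = 0.00101) with RW mutant p53.

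MXD1, a repressor induced during differentiation, held 28, 25.3 and 32.3 CPM at 6 h and 49.9, 36.9 and 42.0 CPM at 24 h in pGFP. It rose by 0.59 on the log2 scale in pGFP (SE 0.16, adjusted p = 0.00508) and by 0.50 with RW mutant p53 (SE 0.16, adjusted p = 0.0156). The second call was lost without RW mutant p53 replicate 1 at 24 h (adjusted p = 0.142) or at 6 h (adjusted p = 0.0554). MXI1 held 20.2, 18.4 and 17.8 CPM at 6 h and 15.4, 15.2 and 15.0 CPM at 24 h in pGFP, with no overlap. It fell by 0.31 on the log2 scale (SE 0.083, adjusted p = 0.00411) in pGFP and fell by 0.35 (SE 0.082, adjusted p = 0.00152) with RW mutant p53. MYC, MAX, MXD3 and MNT were not called in either comparison.

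The response to functional p53 was read from wild type p53 against pGFP. At 24 h MXI1 rose and MXD3 fell with wild type p53, 2 of 8 genes against 35% of all genes tested. MXI1, a repressor that counters MYC at shared sites, held 27.3, 22.7 and 21.6 CPM with wild type p53 where pGFP held 15.4, 15.2 and 15.0. Every wild type library lay above every pGFP library, and the fold was 1.57 (log2 0.65, SE 0.083, adjusted p = 6.53e-07). MXD3, a repressor whose expression is tied to the S phase of the cell cycle, held 7.15, 8.18 and 8.75 CPM against 10.3, 11.2 and 10.7 CPM. It fell by 0.42 on the log2 scale (SE 0.14, adjusted p = 0.0201) without overlap. The call of MXD3 was lost without wild type replicate 1 (adjusted p = 0.0644) or pGFP replicate 2 (adjusted p = 0.0666), which leaves 1 gene called.

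At 6 h none of the 8 genes passed the test with wild type p53, against 10.3% of all genes, and none had an unadjusted p under 0.05. MXI1 then held 19.5, 20.4 and 18.9 CPM with wild type p53 against 20.2, 18.4 and 17.8 in pGFP, and the groups overlapped. The effect of wild type p53 on MXI1 at 24 h exceeded that at 6 h by 0.59 on the log2 scale (interaction, SE 0.12, adjusted p = 0.00274). MXI1 was the 1 member so called, against 6.51% of all genes. The estimate for MYC was larger, 0.81, but so was its error (SE 0.63), and it did not pass (adjusted p = 0.570). It passed with the replicate number as a block (log2 0.82, adjusted p = 0.0453). At 6 h that number pairs the libraries weakly at most, with 5 of 9 same-numbered pairs correlated above 0.1.

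The libraries at 24 h were paired by replicate number: in all 30 pairs of same-numbered libraries from different groups, residuals correlated above 0.1. With that number as a block, 4 members were called for wild type p53 against pGFP at 24 h, against 48.4% of all genes. MXD4 was then lower (log2 -0.21, adjusted p = 0.00684), from 43.8, 58.8 and 50.7 CPM with wild type p53 and 55.5, 59.4 and 61.5 CPM in pGFP. MNT, a repressor found in most cell types, was higher (log2 0.31, adjusted p = 0.0105), at 11.4, 11.7 and 12.1 CPM against 8.10, 10.6 and 9.62 CPM. Without the block these gave adjusted p of 0.0815 for MXD4 and 0.108 for MNT.

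**Figure D2:**
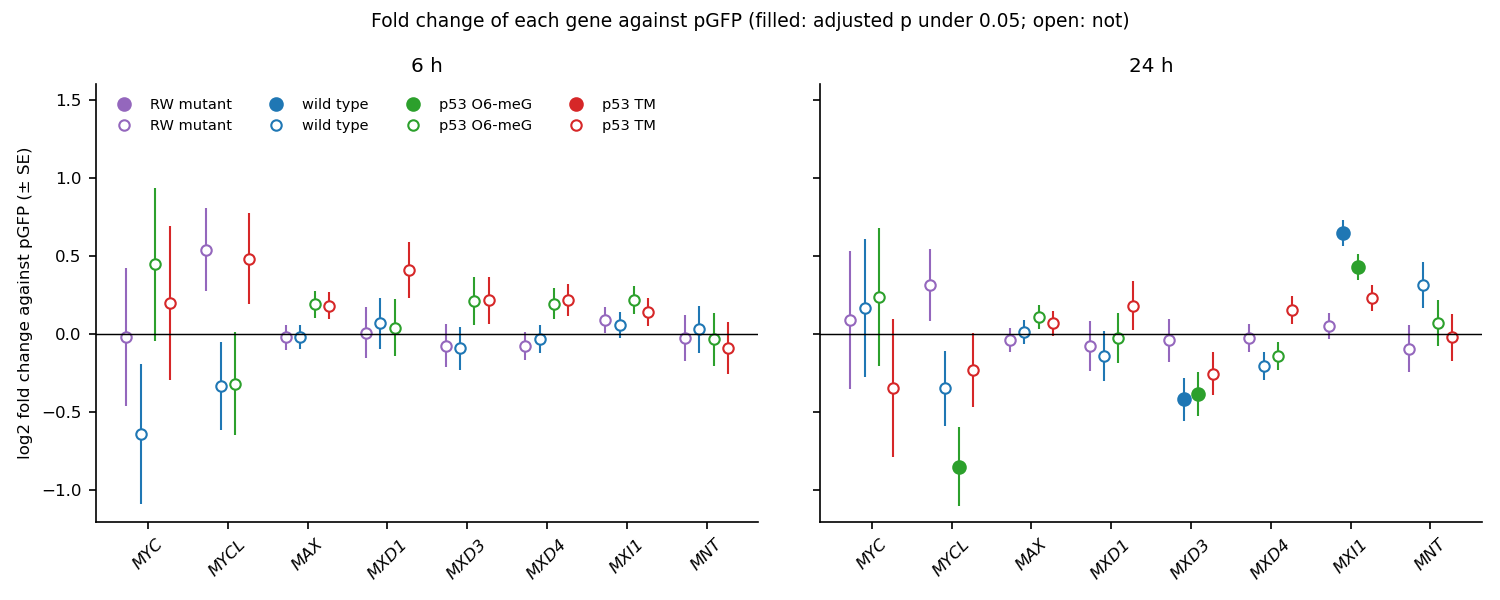
Log2 fold change of each gene against pGFP (vertical axis, with its standard error) at 6 h (left) and 24 h (right), for the 4 p53 vectors or treatments. Filled points passed an adjusted p of 0.05 without the block. At 24 h MXI1 is filled for wild type p53 (0.65) and p53 O6-meG (0.43), MXD3 for both, MYCL for p53 O6-meG, and no point is filled at 6 h.

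RW mutant p53 against pGFP called none of the 8 members at either time, where 0.00469% of all genes tested were called at 6 h and 0.00469% at 24 h. No member had an unadjusted p under 0.05 in either comparison. MXI1 with RW mutant p53 held 16.3, 15.5 and 15.5 CPM at 24 h, and MYC held 25.7, 63.0 and 58.6 CPM.

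Wild type p53 was also compared with RW mutant p53, which controls for p53 overexpression. At 24 h 4 of 8 members were called, against 35.6% of all genes. MXI1 was higher by 0.60 on the log2 scale (SE 0.082, adjusted p = 2.16e-06) and MNT by 0.41 (SE 0.15, adjusted p = 0.0339), where RW mutant libraries held 9.01, 8.90 and 8.65 CPM of MNT. MXD3 was lower by a log2 change of -0.38 (SE 0.14, adjusted p = 0.0341), from 9.81, 11.9 and 9.59 CPM with RW mutant p53. MYCL was lower (log2 -0.66, SE 0.23, adjusted p = 0.0286), with 0.924, 1.05 and 0.522 CPM against 1.68, 1.31 and 0.988 CPM, and its libraries overlapped. The block added MXD4 (log2 -0.18, adjusted p = 0.0181).

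Except for MXI1, called in every alternative run, single libraries decided these calls. MNT lost its call when any of 8 libraries was left out (adjusted p = 0.0502 to 0.0846), namely any of the 6 libraries of both groups at 24 h or replicate 1 of either at 6 h. MXD3 lost it without wild type replicate 1 (adjusted p = 0.108), wild type replicate 2 (0.0629) or RW mutant replicate 2 (0.184) at 24 h. MYCL lost it without RW mutant replicate 1 (adjusted p = 0.174), RW mutant replicate 2 (0.0553) or wild type replicate 3 (0.184). The number of members called was then 2 without wild type replicate 1, RW mutant replicate 1 or wild type replicate 3, and 1 without RW mutant replicate 2. At 6 h MYCL was the 1 member called, against 9.94% of all genes, with 0.422, 0.251 and 0.354 CPM under wild type p53 and 0.611, 0.648 and 0.629 CPM under RW mutant p53 (log2 -0.87, SE 0.28, adjusted p = 0.0425). The call was lost when any of 6 libraries was left out, namely RW mutant replicates 1, 2 and 3, wild type replicates 2 and 3 and pGFP replicate 2, all at 6 h (adjusted p = 0.0501 to 0.198).

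The vector with the repairable lesion, p53 O6-meG, was compared with the same pGFP libraries, so its values stand beside those of wild type p53 without an independent control. At 24 h 3 of 8 members were called, against 29.5% of all genes. MXI1 held 19.4, 21.4 and 20.7 CPM and was higher than in pGFP by 0.43 on the log2 scale (SE 0.083, adjusted p = 0.000213). MXD3 held 7.29, 7.92 and 9.51 CPM (log2 -0.38, SE 0.14, adjusted p = 0.0399), below every pGFP library. MYCL held 0.644, 0.533 and 0.601 CPM, a fold of 0.555 (log2 -0.85, SE 0.25, adjusted p = 0.0122), also below every pGFP library. Without pGFP replicate 1, pGFP replicate 2 or p53 O6-meG replicate 2 at 24 h MXI1 alone stayed called, with MYCL at adjusted p of 0.0549 to 0.0567. MXD3 also lost its call without pGFP replicate 3 (adjusted p = 0.0755) or p53 O6-meG replicate 1 (0.154). At 6 h none was called, against 4.85% of all genes, and 2 members, MAX and MXI1, had an unadjusted p under 0.05 (0.0397 and 0.0248). The share of all genes at that unadjusted threshold is not given here.

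Under transcriptional mutagenesis, p53 TM against pGFP called none of the 8 members at either time, against 0.202% of all genes at 6 h and 10.7% at 24 h. At an unadjusted p under 0.05 there were 3 at 6 h, MAX, MXD1 and MXD4, and 1 at 24 h, MXI1. The shares above are for adjusted p, and the share of all genes at the unadjusted threshold is not given here. MXI1 held 18.4, 17.2 and 17.8 CPM with p53 TM at 24 h, above all pGFP libraries and below all wild type libraries (log2 0.23 against pGFP, SE 0.083, adjusted p = 0.0831). With the block it passed (adjusted p = 0.0228), as did MXD1 (log2 0.18, adjusted p = 0.0433), 2 members against 21.7% of all genes. MXD1 with p53 TM held 57.1, 43.0 and 46.0 CPM against 49.9, 36.9 and 42.0 CPM in pGFP, higher within each replicate number. In the block of 24 h libraries only, chosen after seeing the data, the 2 members called were MYC (log2 -0.39, adjusted p = 0.00197) and MXD3 (log2 -0.30, adjusted p = 0.0486) instead, against 23% of all genes.

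Set against wild type p53 at 24 h, 2 of 8 members were called for p53 TM, against 21.2% of all genes. MXI1 was lower by a log2 change of -0.42 (SE 0.082, adjusted p = 0.000645), with no overlap. MXD4 was higher by 0.36 (SE 0.089, adjusted p = 0.00502), at 60.8, 72.2 and 63.6 CPM against 43.8, 58.8 and 50.7 CPM. A fit of only the 6 libraries of both groups called neither (adjusted p = 0.0571 and 0.0925). Set against p53 O6-meG, which carries the same vector without O6-bzG, MXD4 was the 1 member called, against 10% of all genes. It held 52.5, 57.5 and 50.1 CPM with p53 O6-meG and was higher with p53 TM by 0.30 on the log2 scale (SE 0.089, adjusted p = 0.0343). That call was lost without p53 O6-meG replicate 1 or 3, or without p53 TM replicate 2 or 3, at 24 h (adjusted p = 0.0698 to 0.197).

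With the replicate block, 5 members were called for p53 TM against wild type p53 at 24 h (37% of all genes) and 5 against p53 O6-meG (25.3% of all genes). MYC was among them in both. Its levels at 24 h followed the replicate number more than the vector: replicate 1 held 22.7 CPM in pGFP, 26.4 with wild type, 25.7 with RW mutant, 25.2 with p53 O6-meG and 17.6 with p53 TM. Replicate 2 held 57.7, 56.9, 63.0, 57.1 and 43.2 CPM in the same order, and replicate 3 held 57.8, 71.6, 58.6, 80.7 and 47.9 CPM. In each replicate number the p53 TM library was the lowest of the 5.

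Within replicate numbers 1, 2 and 3, MYC with p53 TM differed from wild type p53 by log2 values of -0.58, -0.40 and -0.58, and from p53 O6-meG by -0.51, -0.40 and -0.75. Against pGFP the 3 differences were -0.36, -0.42 and -0.27. Without the block the changes did not pass (log2 -0.51, SE 0.44, adjusted p = 0.476 against wild type, and log2 -0.58, SE 0.44, adjusted p = 0.481 against p53 O6-meG). With the block they did, at adjusted p of 0.0454 and 0.0416. In the block of 24 h libraries only, the adjusted p was 6.27e-05 and 8.93e-05. Against pGFP the block over all libraries did not call MYC. Wild type p53 against pGFP at 24 h gave no single direction for MYC, with differences of 0.22, -0.02 and 0.31.

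**Figure D3:**
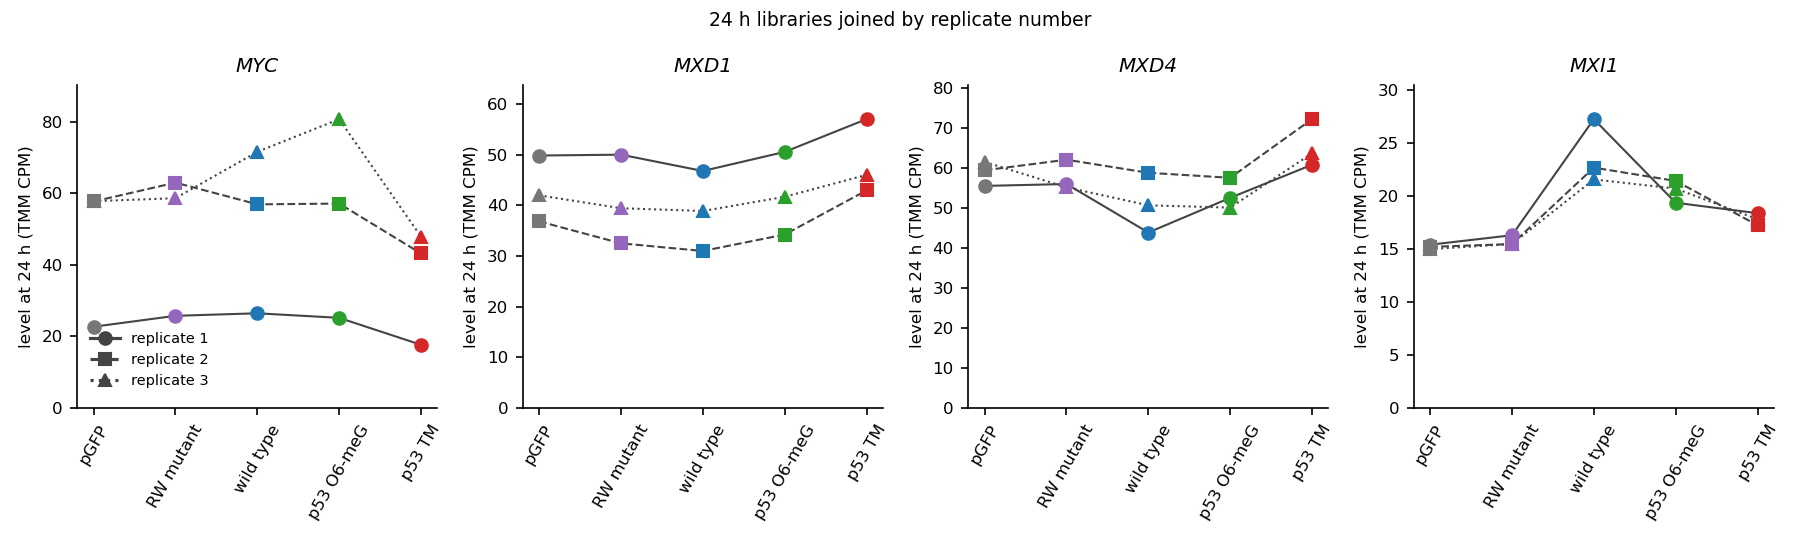
Level at 24 h (vertical axis, TMM-normalized CPM from 0) of MYC, MXD1, MXD4 and MXI1 by vector (horizontal axis), with libraries of the same replicate number joined. For MYC the replicate 1 line runs from 17.6 to 26.4 CPM, under both other lines, and all 3 lines end lowest at p53 TM. For MXD1 and MXD4 the p53 TM point is the highest of its line in all 3 replicate numbers.

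The other members added by the block were repressors and MYCL. MXD1 was higher with p53 TM than with wild type p53 (log2 0.33, adjusted p = 0.000218), at 57.1, 43.0 and 46.0 CPM against 46.8, 31.0 and 38.9 CPM. It was also higher than with p53 O6-meG (log2 0.21, adjusted p = 0.0159), which held 50.6, 34.2 and 41.7 CPM. MNT was lower with p53 TM than with wild type p53 (log2 -0.34, adjusted p = 0.00793), at 10.2, 9.70 and 8.03 CPM. MXI1 was lower than with p53 O6-meG (log2 -0.21, adjusted p = 0.0350). MYCL was higher than with p53 O6-meG (log2 0.66, adjusted p = 0.0341), at 0.901, 0.856 and 0.962 CPM, and was not called in the block of 24 h libraries only.

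At 6 h no member was called for p53 TM against wild type p53 (10.9% of all genes) or against p53 O6-meG (4.1% of all genes). Unadjusted p under 0.05 was reached by 3 members in the first comparison, MYCL, MAX and MXD4, and by MYCL in the second, with no share of all genes given at that threshold. With the block MXD1 was called in the second (log2 0.37, adjusted p = 0.00302), where 12.2% of all genes were. For p53 TM against wild type p53 the calls depended on the fit. With only the libraries of both groups, MYC (log2 0.86, adjusted p = 0.00852), MXD1 (log2 0.37, adjusted p = 0.0126) and MXD4 (log2 0.27, adjusted p = 0.0203) were called. The share of all genes called in that fit is not given here. With the block MYC, MYCL, MAX, MXD1 and MXD4 were called, where 21.1% of all genes were. DESeq2's Wald test called MXD4 (adjusted p = 0.0478). MYC at 6 h held 38, 35.8 and 44.3 CPM in pGFP, 37.5, 32.2 and 46.8 with RW mutant and 22.1, 22.4 and 31.0 with wild type p53. The wild type libraries lay below both control groups without overlap, yet the difference from pGFP did not pass (log2 -0.64, SE 0.45, adjusted p = 0.519), nor did that from RW mutant p53 (log2 -0.62, SE 0.45, adjusted p = 0.570). Both passed in a fit of only the groups compared (adjusted p = 0.00101 against pGFP and 0.0108 against RW mutant) and with the block (0.0226 and 0.0330), although at 6 h the numbers pair the libraries weakly at most. With p53 O6-meG the libraries at 6 h held 27 and 80.6 CPM and with p53 TM 55.8 and 34.6 CPM, a spread as wide as that between groups. The 2 libraries placed in no group held 25.9 CPM (genotype label O6-meG) and 20.6 CPM (genotype label TM) of MYC. The fits that called MYC higher with p53 TM than with wild type p53 left both of these out. MAX, the obligate partner, ranged from 36.7 to 50.3 CPM over all 30 libraries and was called in no comparison without the block.

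Partners and regulators of the network were counted from lists chosen from general knowledge. The extended network holds MGA, a further partner of MAX, MLX, a protein related to MAX, and its glucose-sensing partners MLXIP (MondoA) and MLXIPL (ChREBP). With wild type p53 at 24 h MLXIPL was the 1 of these 4 called (log2 1.08, SE 0.37, adjusted p = 0.0264), where 35% of all genes were called. Its mean was 3.21 ± 0.988 CPM (SD, n = 3) against 1.53 ± 0.517 in pGFP. Against RW mutant p53 MLXIPL (log2 1.23, adjusted p = 0.0113) and MLXIP (log2 0.41, adjusted p = 0.0473) were called, where 35.6% of all genes were. Without wild type replicate 1 at 24 h, none of the 4 genes was called in either comparison. Between times in pGFP, MGA (log2 -0.34) and MLX (log2 -0.33) fell, where 41.2% of all genes were called in either direction. TXNIP was not analysed here, and the MondoA target ARRDC4 rose from 6 h to 24 h in pGFP (log2 1.10, SE 0.28, adjusted p = 0.00303). With RW mutant p53 ARRDC4 was not called between the times (log2 0.62). Its level there was low, with means of 0.679 CPM at 6 h and 1.04 CPM at 24 h.

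Of 20 genes for turnover of MYC and its cofactors, 5 rose and 5 fell with wild type p53 at 24 h, 10 in all against 35% of all genes (7 and 8 with the block, where 48.4% of all genes were called). PVT1, a noncoding RNA gene next to MYC, had the smallest p: it held 37.3 ± 4.26 CPM (SD, n = 3) with wild type p53, 32.0 ± 3.53 with p53 O6-meG, 23.4 ± 3.39 with p53 TM and 11.5 ± 1.02 with RW mutant, against 11.7 ± 1.61 in pGFP. Its log2 rise with wild type p53 was 1.68 (SE 0.12, adjusted p = 3.19e-11), and p53 TM was lower than wild type (log2 -0.68, SE 0.11, adjusted p = 0.000110). FBXW7, the ubiquitin ligase subunit that marks MYC for degradation, rose by 0.90 on the log2 scale (SE 0.12, adjusted p = 2.37e-06) with wild type p53 and by 0.80 with p53 TM (adjusted p = 5.27e-05). USP28, the deubiquitinase that opposes FBXW7, fell by 0.59 on the log2 scale with wild type p53 (SE 0.069, adjusted p = 1.69e-07). WDR5, a chromatin cofactor of MYC, rose by 0.49 (adjusted p = 1.82e-05).

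The 16 corepressor genes recruited by MXD proteins and MNT split into 2 that rose and 5 that fell with wild type p53 at 24 h, 43.8% of the list where 35% of all genes were called (5 and 8 with the block, where 48.4% of all genes were called). NCOR1, a nuclear corepressor, held 302 ± 41.4 CPM (SD, n = 3) against 143 ± 9.06 in pGFP (log2 1.08, SE 0.10, adjusted p = 6.51e-09), and 223 ± 28.8 with p53 TM. SUDS3 and ING1, subunits of the SIN3 deacetylase complex, fell by 0.24 (adjusted p = 0.00862) and fell by 0.38 (adjusted p = 0.00106) on the log2 scale.

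Targets that MYC is known to induce, 40 genes mostly for ribosome production, nucleotide synthesis and metabolism, mostly fell between 6 h and 24 h in pGFP and with RW mutant p53. In pGFP 36 fell and 0 rose, 90% of the list where 41.2% of all genes were called in either direction, with a median log2 change of -0.75 where the median over all genes was 0.00. With RW mutant p53 34 fell and 1 rose, 87.5% of the list where 40.1% of all genes were called, with a median of -0.76. TERT, the catalytic subunit of telomerase, fell by 1.67 on the log2 scale in pGFP (SE 0.26, adjusted p = 1.63e-05). The nucleolar factors UTP20 (log2 -1.29, adjusted p = 7.68e-09) and NOP16 (log2 -1.29, adjusted p = 8.25e-07) fell as well. MYC itself did not pass in this comparison (log2 0.23, SE 0.44, adjusted p = 0.718).

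With wild type p53 at 24 h 10 of these 40 targets rose and 0 fell, with a median log2 change of 0.19 against 0.01 over all genes. The count is 25% of the list where 35% of all genes were called in either direction, and it ranged from 4 to 26 over the alternatives. Under the block 26 rose and 0 fell, where 48.4% of all genes were called. RCL1, a ribosomal RNA processing factor, held 55.3 ± 5.10 CPM (SD, n = 3) against 25.7 ± 2.80 in pGFP (log2 1.11, SE 0.099, adjusted p = 2.51e-09). PA2G4 (log2 0.83, adjusted p = 3.73e-09), NME1 (log2 0.77, adjusted p = 2.25e-07) and WDR43 (log2 0.73, adjusted p = 2.26e-06) rose too. With p53 O6-meG at 24 h 6 rose and 0 fell, 15% of the list where 29.5% of all genes were called. The block gave 22 higher and 1 lower, where 42.8% of all genes were called. With p53 TM 4 rose and 0 fell, 10% of the list where 10.7% of all genes were called, with a median of -0.07. There the block gave 4 higher and 7 lower, where 21.7% of all genes were called.

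Against wild type p53 at 24 h, 12 of the 40 were lower with p53 TM and 0 higher, with a median log2 change of -0.26 against -0.01 over all genes. That is 30% of the list where 21.2% of all genes were called. A fit of only the groups compared called 4, with no share of all genes given for that fit. The block gave 29 lower and 0 higher, where 37% of all genes were called. Against p53 O6-meG 7 were lower and 0 higher, with a median of -0.24, 17.5% of the list where 10% of all genes were called. A fit of only the groups compared called 3, with no share of all genes given for that fit. The block gave 26 lower, where 25.3% of all genes were called. RCL1 was among them (log2 -0.69 against wild type p53, adjusted p = 2.51e-05), with 34.3 ± 0.642 CPM (SD, n = 3) under p53 TM.

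At 6 h 3 of the 40 rose and 1 fell with wild type p53, 10% of the list where 10.3% of all genes were called. Of 10 genes that MYC is known to repress, 2 rose at 6 h and 3 at 24 h with wild type p53: CDKN1A (log2 3.68), GADD45A (log2 2.31, adjusted p = 3.79e-10) and GADD45B (log2 0.49) at the later time. These are 20% of the list at 6 h, where 10.3% of all genes were called, and 30% at 24 h, where 35% were. CDKN1A and GADD45A are also direct targets of p53. Between times in pGFP 6 of the 10 rose, with NDRG1 (log2 2.48, adjusted p = 1.59e-08) and CDKN1C (log2 2.10, adjusted p = 3.22e-06) among them, and 1 fell, THBS1 (log2 -1.44, adjusted p = 2.97e-06), 70% of the list where 41.2% of all genes were called. RW mutant p53 against pGFP called 0 genes of any of these lists.

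**Figure D4:**
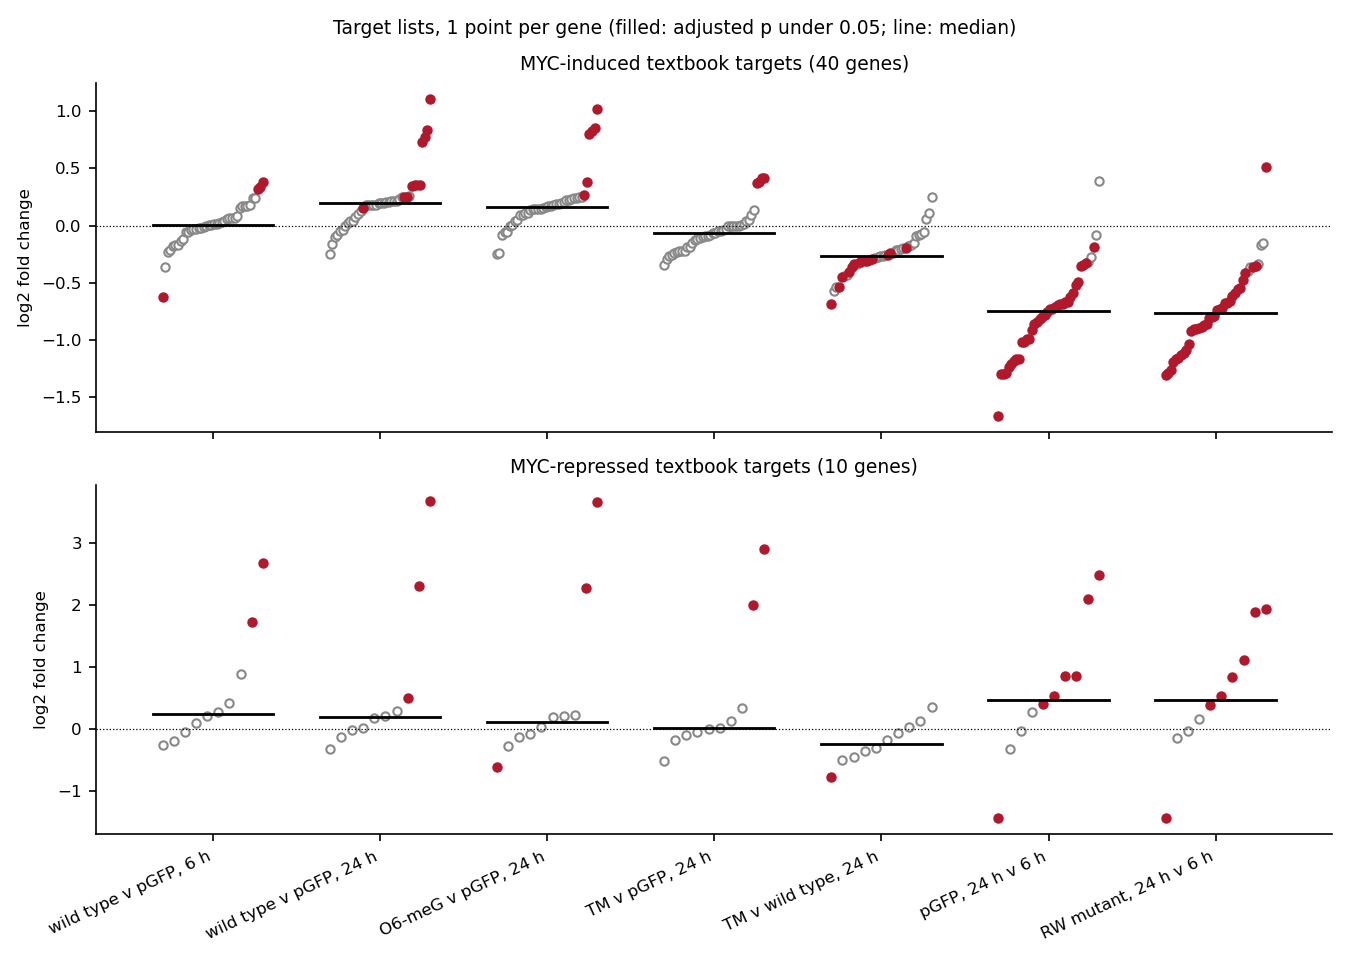
Log2 fold change (vertical axis) of each of the 40 genes known to be induced by MYC (top) and of the 10 known to be repressed by it (bottom) in 7 comparisons (horizontal axis). Filled points passed an adjusted p of 0.05 without the block and lines mark medians. The induced genes lie below 0 between 24 h and 6 h (medians -0.75 and -0.76), slightly above 0 with wild type p53 at 24 h (0.19) and below 0 for p53 TM against wild type p53 (-0.26).

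The genes whose levels moved most like MYC across the 28 grouped libraries were named by Pearson's r of log2 CPM, as a description. They were the Wnt antagonist DKK1 (r = 0.94), the zinc finger factor KLF6 (0.93), BCAR3 (0.91) and ID1 (0.88), and the least alike were HECTD2 (-0.84), DMD (-0.82) and GABRQ (-0.81). Among 15 libraries at 24 h r was 0.98 for DKK1, and among 13 at 6 h it was 0.86. Of the other network genes MXD3 was most like MYC (0.52) and MXD1 least (-0.18), and at 24 h alone MXD1 gave -0.81. For MXI1 the most alike were PNP (0.90), ZNF420 (0.90), RSU1 (0.90), DNAJC8 (0.89) and RCL1 (0.89), and the least alike were NUMB (-0.88), RCOR1 (-0.88) and RALGPS2 (-0.87). These points share libraries, sorts and replicate numbers, and the r of PNP was 0.94 at 24 h and 0.59 at 6 h.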

How the data were processed

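RNA-seq was made from 30 libraries of GFP-sorted H1299 cells with a stranded total RNA kit after ribosomal RNA depletion. Per the labels and the submitters' processing notes, single reads were aligned to hg38 with STAR 2.5.3a and counted on GENCODE v27 genes with featureCounts (Subread 1.5.2), and the authors deposited raw read counts per gene without normalization. Their table of normalized values, made with DESeq2 1.20, was not used here.

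Of 39359 genes, 38904 were matched to GENCODE v44 for coordinates and lengths. In R 4.3.3 with edgeR 4.0.16, genes with at least 10 counts by filterByExpr (21335) were normalized by TMM and 10 groups of 28 libraries fitted together. Comparisons used the quasi-likelihood F test with Benjamini-Hochberg adjustment over all genes tested, and called means an adjusted p under 0.05. Depth ran from 32302699 to 71950532 reads and limits MYCL and MYCN most. Script and test were tested on simulated data. No library pair of a group (26 pairs) matched within counting noise, with a chi-square per degree of freedom of 5.51 to 41.9. Same-numbered 24 h libraries had residual correlations of 0.182 to 0.613 in 30 of 30 pairs (median 0.422, against -0.278 between different numbers). The main fit has no block and ignores this pairing. Fits with the replicate number as a block take it into account and are named as such wherever they are given.

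The 9 members and the lists were chosen with earlier results of these data known. All members were named, with fold changes mainly for those called. From each list up to 4 genes were named, those called in wild type p53 against pGFP at 24 h with the smallest p, and all genes of lists of 4 or fewer. TERT, UTP20, NOP16, NDRG1, CDKN1C and THBS1 fall outside this rule and were picked after their values were seen. For MYC and MXI1 the 5 most alike and 3 least alike genes were named by Pearson's r of log2 CPM with a prior count of 2. Results for a few genes that these rules reach are not reported here. Alternatives were DESeq2 1.42.0, its size factors, other filters, fewer groups, the replicate block, both placements of the 2 conflicting libraries and each library left out. Promoters came from RefSeq GRCh38.p14 and 105 of 107 list genes were found.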

Additional observations from a re-analysis of the deposited data

Results flagged for a closer look

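MXI1 differed between the times in its response to wild type p53: the log2 effect at 24 h exceeded that at 6 h by 0.59 (SE 0.12, adjusted p = 0.00274, interaction term of edgeR's quasi-likelihood fit). The wild type libraries lay above pGFP at 24 h in 3 of 3 replicate numbers, and the groups overlapped at 6 h.

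The 2 libraries at 6 h that entered no group held some members above the highest pGFP library at 6 h and others below the lowest. MXI1 stood at 24.9 CPM in the library whose genotype label says O6-meG and at 22.7 CPM in that whose genotype label says TM, where pGFP reached 20.2 CPM. MAX stood at 43.9 and 44.1 CPM in the same order, where pGFP reached 43.7 CPM. In the first library MXD1 stood at 33.6 CPM, where pGFP reached 32.3 CPM, and MXD4 at 30.7 CPM, where pGFP reached 30.4 CPM. MYC stood lower, at 25.9 CPM in the first library and 20.6 CPM in the second, where the lowest pGFP library held 35.8 CPM. MNT stood at 5.93 CPM in the first library, where the lowest pGFP library held 6.79 CPM. The differences of MAX, MXD1 and MXD4 are small beside the range of the 3 pGFP libraries. No difference of these 2 libraries from pGFP was tested.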

How the results depend on the processing

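The calls of MXI1 at 24 h (wild type p53 or p53 O6-meG against pGFP, wild type against RW mutant p53), in the interaction and between times held in every alternative run. Over the 51 log2 fold changes of members followed through the alternatives, which were those called in at least 1 of the fits, none reversed and 1750 of 1853 values kept their side of the threshold. Differences never called were not followed, and at least 1 of these, MAX for wild type p53 against pGFP at 24 h, lies near 0 and changes sign under the block of 24 h libraries only (log2 0.01 and -0.01). With the replicate block, the number of members called became 1 for wild type p53 against pGFP at 6 h and 4 at 24 h, 1 and 2 for p53 TM against pGFP, 5 and 5 for p53 TM against wild type p53, 1 and 5 for p53 TM against p53 O6-meG, 2 for wild type against RW mutant p53 at 6 h and 2 for the interaction, and it changed no other count by over 1.5 times. In the same order, the shares of all genes called with the block were 18.8% and 48.4%, 1.54% and 21.7%, 21.1% and 37%. They were 12.2% and 25.3% for p53 TM against p53 O6-meG. For wild type against RW mutant p53 at 6 h the share was 17.2%, and for the interaction it was 18.3%. At 6 h the numbers pair the libraries weakly at most (5 of 9 correlations above 0.1, median 0.125, against -0.0489 between different numbers). The replicate block on 24 h libraries only was added after seeing the data. It gave 5 members for wild type p53 against pGFP (51.3% of all genes) and 2 for p53 TM against pGFP (23%). It gave 5 for p53 TM against wild type p53 (38.7%) and 4 against p53 O6-meG (26.8%). Comparisons between times have no blocked value, since the block lies within each time. A fit of only the groups compared gave 1 for wild type p53 against pGFP at 6 h, 3 and 0 for p53 TM against wild type p53 at 6 h and 24 h, 0 for p53 TM against p53 O6-meG at 24 h, and 2 and 2 for wild type against RW mutant p53. DESeq2's Wald test gave 1 for p53 TM against wild type p53 at 6 h and 0 for wild type against RW mutant p53 at 6 h. DESeq2 size factors in edgeR gave 0 for p53 TM against p53 O6-meG at 24 h. No filter gave 0 there and 0 for wild type against RW mutant p53 at 6 h. With each replicate left out in turn, counts ran from 1 to 3 for wild type p53 against pGFP at 24 h, 1 to 3 for p53 O6-meG against pGFP at 24 h, 0 to 1 for p53 TM against wild type p53 at 6 h (1 without wild type replicate 1 at 24 h), 0 to 1 for p53 TM against p53 O6-meG at 24 h, and 0 to 1 at 6 h and 1 to 4 at 24 h for wild type against RW mutant p53. Shares of all genes called are not given here for the fit of only the groups compared, DESeq2, its size factors, no filter or the libraries left out. Their counts of members therefore cannot be set beside the rate over all genes. Where a group was left with 1 library, that library was assumed to vary like the others. The cause of these changes was not tested. Of 80 group levels, 74 moved by less than 1 SD under other size factors.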
